A study of Homo sapiens with 21 samples.

Results

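The messenger RNA of 38 genes of DNA replication and E2F target expression was followed across 21 RNA-seq libraries of the human melanoma cell line A375, which carries a mutant BRAF kinase, and of 4 lines derived from it. The genes were given as a list, all 38 were found among the 58870 genes of the deposited tables, and all 38 passed a filter on low values (10 or more in 3 or more libraries). The parental group was A375 grown without a drug. The groups gSOX10 #2 and gSOX10 #4 were A375 cells in which SOX10, a lineage transcription factor of neural crest and melanocytes, had been targeted by transfecting Cas9 with 1 of 2 guide RNAs. Each is a single line, and no line carried through the same steps without a SOX10 guide was among the groups. CRT34 and CRT35 were A375 cells that had formed tumors in mice treated with a BRAF and a MEK inhibitor, had become tolerant there, and were later cultured with both drugs. Each CRT line was sequenced under Combo, PLX4720 (1 µM, against BRAF) plus PD0325901 (35 nM, against MEK), and under DMSO without drug, for a time that the labels do not give. Each of the 7 groups held 3 libraries. The study describes the libraries of each knockout line as independent, and nothing used here says so of the other groups, nor that any came from separate cultures, so p-values measure the spread between these libraries, which may be technical. The history of a derived line cannot be told apart from its SOX10 status.

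Values are normalised read counts, whose scale per gene is not given, and so they are compared between groups and not between genes. Read depth, estimated from the step between low values, was 27.2 M to 75.5 M per library, with the lowest estimate in CRT35 DMSO replicate 1. That estimate rests on a step of 2.30, against 0.82 to 1.22 in the other libraries. It would be too low if the step there stood for more than 1 read, which was not tested. SOX10 stood at 10348, 11877 and 12822 in the parental libraries, at 392, 504 and 459.6 in gSOX10 #2 and at 456, 488 and 517 in gSOX10 #4. SOX10 was at 0 in the CRT lines in 10 of 12 libraries and at 6.32 and 0.974 in the other two, both of CRT34 DMSO. Of the 8 melanocytic and neural crest markers, MLANA and TYR stayed under 10 in all 21 libraries, the parental ones included. The summed level of these 8 markers was 18259 to 23891 in parental libraries and from 1454 to 10355 in the derived ones. SOX10, the targeted gene, is 1 of the 8 and made up a large part of the parental sums. The highest derived sum, in CRT34 Combo, was mostly MITF. Of the 5 markers that passed the filter, 3 or 4 were called lower in each derived group (60% to 80%), against 7.35% to 10.2% of all genes. MITF, a melanocyte transcription factor of this list, stood at 1502, 1448 and 1390.0 in parental libraries and was called higher in CRT34 Combo (8954, 10247 and 3772, a log2 change of 2.28) and CRT35 Combo (4116, 2934 and 3097, 1.21).

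Before a chromosome is copied, the origin recognition complex, CDC6 and CDT1 load the MCM2 to MCM7 helicase onto origins. MCM10, CDC45 and the GINS complex then activate that helicase, and polymerases, the PCNA clamp with its RFC loader, and the flap endonuclease and ligase of the lagging strand carry out synthesis. Many of these genes, and those of deoxynucleotide synthesis, are transcribed as cells enter S phase, when cyclin-dependent kinases release E2F factors from the RB family. In proliferating tumor cells they are widely used as markers of cycling cells. In bulk RNA, fewer cells in S phase and less of a transcript per cell cannot be told apart.

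E2F factors bind sites near the start of many of these genes, so promoter windows from RefSeq (GRCh38.p14, 250 bases before to 50 bases after the start of each gene) were searched for the 8-base words TTTCCCGC, TTTGGCGC, TTTCGCGC and TTTGCCGC on both strands. Of the 34 listed genes with a window, 20 (58.8%) held at least 1 of these words, against 1090 of all 27305 genes with a window (3.99%). The list was drawn up as replication genes and E2F targets, so this excess is not independent of that choice. A gene with more than 1 window, such as UHRF1, counted if any of them held a word. MCM4, MCM5, GINS4 and CCNE2 had no window. The word CCAAT was in 20 of 34 windows (58.8%, against 39.7% of all genes), and TTTGAA, the core of the cell cycle genes homology region, was in 1 of 34 (2.94%, against 18.2%). The words of each motif can overlap, and a match describes letters only, not a bound site. Of each role the gene with the lowest mean change among those with an E2F-type word is shown, with E2F1 added, as the bases around the words, the start of the transcript included. Capitals mark the E2F-type words, which read as given or as their reverse complement.
MCM2: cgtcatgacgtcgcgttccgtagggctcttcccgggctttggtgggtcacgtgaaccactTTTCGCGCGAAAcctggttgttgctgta
GINS2: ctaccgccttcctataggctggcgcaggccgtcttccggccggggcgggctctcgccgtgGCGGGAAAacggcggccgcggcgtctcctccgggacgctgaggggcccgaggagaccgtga
RFC3: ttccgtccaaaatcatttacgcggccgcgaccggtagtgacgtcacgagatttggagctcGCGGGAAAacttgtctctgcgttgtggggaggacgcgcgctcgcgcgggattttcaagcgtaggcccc
TYMS: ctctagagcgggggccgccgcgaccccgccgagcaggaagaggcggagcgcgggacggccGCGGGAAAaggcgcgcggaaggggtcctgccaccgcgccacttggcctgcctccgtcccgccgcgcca
E2F2: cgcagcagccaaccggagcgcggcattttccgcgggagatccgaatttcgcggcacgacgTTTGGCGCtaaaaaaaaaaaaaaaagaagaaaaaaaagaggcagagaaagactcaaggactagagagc
E2F1: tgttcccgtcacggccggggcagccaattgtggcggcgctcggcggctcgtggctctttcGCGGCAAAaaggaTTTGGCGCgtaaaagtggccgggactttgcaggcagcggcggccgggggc
The stretches lie at chr3:127598353-127598440 (plus strand), chr16:85688925-85689045 (minus strand), chr13:33818034-33818161 (plus strand), chr18:657554-657681 (plus strand), chr1:23531208-23531335 (minus strand) and chr20:33686356-33686478 (minus strand) of GRCh38.p14, across the RefSeq start used for each window. For GINS2 another annotation puts the 5′ end of the gene farther upstream, outside the stretch. In MCM2, a helicase subunit, 2 words overlap from position 3 of the transcript, so that 12 capital letters stand together. E2F1 held 2 words upstream of its own start, beginning at positions -33 and -20, and E2F2 held 1 at position -42. The word GCGGGAAA began at position -31 in GINS2, -55 in RFC3 and -39 in TYMS. MCM6 held 4 words, in 2 overlapping pairs. None of these words was found in the windows of ORC1, MCM10, PRIM1, RRM2, TK1 or CCNE1. As a description, over the 20 genes with a word the median of the mean log2 change against parental cells was -1.21, and over the 14 genes whose window held none it was -0.93.

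Libraries of one group differed in these genes together. In CRT34 DMSO, replicate 1 held the highest value of its group for 38 of 38 genes, and the mean log2 shift from the parental mean over the 38 genes was -0.32 there against -1.35 and -1.30 in replicates 2 and 3. In CRT35 Combo, replicate 1 held the lowest value for 37 of 38 genes, with a shift of -1.59 against -0.95 and -0.78. In gSOX10 #2, replicate 1 was highest for 36 genes and replicate 2 lowest for 37, and the shifts of replicates 1 to 3 were -0.81, -1.67 and -1.24. In gSOX10 #4, replicate 1 was highest for 30 genes, with shifts of -0.88, -1.22 and -1.40. The shifts in CRT34 Combo were -1.38, -1.16 and -1.15, and those in CRT35 DMSO -1.06, -0.65 and -0.80. The 3 parental libraries lay between -0.09 and 0.12, and the mean shift of 12 housekeeping genes lay between -0.33 and 0.10 in all 21 libraries. Counts that rest on the libraries that stood apart are given below with and without them.

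**Figure D1:**
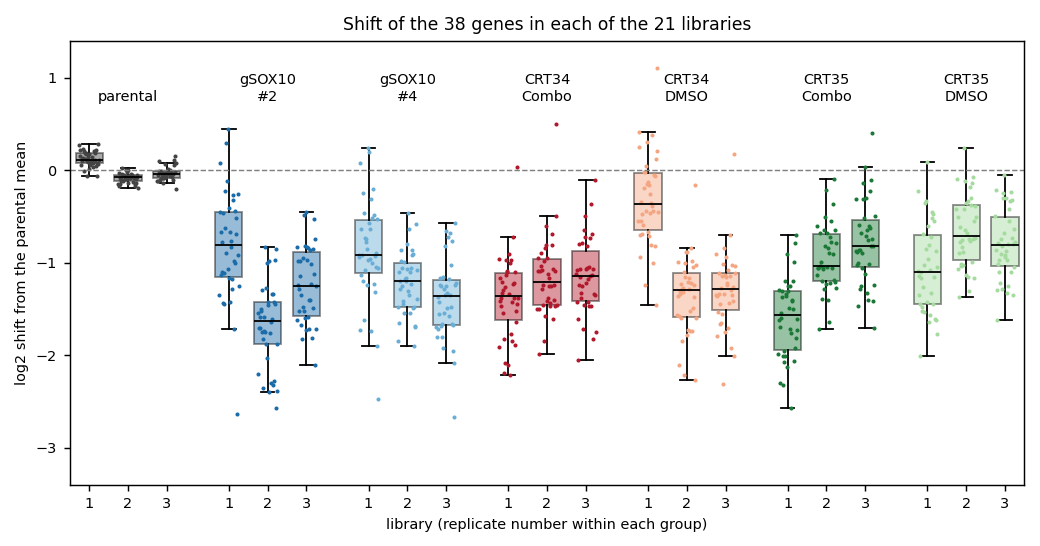
Log2 shift of each of the 38 genes from its mean over the parental libraries (vertical axis) in each of the 21 libraries (horizontal axis, by group and replicate). Points are genes, and boxes show the median and quartiles, with whiskers to the farthest points near the box. CRT34 DMSO replicate 1 sits nearest to the parental line among the derived libraries.

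Messenger RNA of the list was lower than in parental cells in each derived group. The threshold for a call was 2-fold with an adjusted p no higher than 0.05 (limma, Benjamini-Hochberg adjustment over 19290 genes). In gSOX10 #2, 26 of 38 genes fell and none rose, against 7.78% of all genes lower and 15.9% higher. In gSOX10 #4, 25 fell and none rose, against 8.91% and 11.8% of all genes. In CRT34 Combo, 30 fell and none rose (all genes 8.09% lower, 19.1% higher), and in CRT35 Combo 22 fell and none rose (all genes 10.2% and 20.1%). Without drug, 17 fell in CRT34 DMSO (all genes 7.35% lower and 15.7% higher) and 12 in CRT35 DMSO (all genes 7.98% and 15.7%), and none rose in either. These 6 comparisons share the parental libraries. The median log2 change of the 38 genes was -1.21, -1.15, -1.23, -1.15, -0.96 and -0.88 in that order, while the median over all genes tested lay between 0 and 0.05. At an unadjusted p under 0.05, 27 to 36 of the 38 genes were lower in each comparison and 0 were higher, while 46.8% to 57.0% of all genes passed it in either direction.

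By level, the median gene of the list stood at 44.6% of its parental mean in gSOX10 #2, 45.7% in gSOX10 #4, 42.6% in CRT34 Combo, 46.0% in CRT35 Combo, 54.7% in CRT34 DMSO and 55.0% in CRT35 DMSO. Every library of the group lay below every parental library for 35 of 38 genes in gSOX10 #2 (all genes 28.9%), 35 in gSOX10 #4 (24.6%), 37 in CRT34 Combo (27.8%), 35 in CRT35 Combo (31.7%), 26 in CRT34 DMSO (26.3%) and 34 in CRT35 DMSO (30.0%). For 22 genes this held in all 6 groups, which are set against the same parental libraries. How many of all genes do so, or are called lower in all 6 comparisons, was not counted. By the call threshold 8 genes were called lower in all 6 comparisons (MCM2, MCM3, MCM6, MCM10, GINS2, PRIM1, RFC3 and TYMS), 6 in 5, 8 in 4, 2 in 3, 6 in 2 and 4 in 1, and the remaining 4 in none. Of the 8, GINS2 and RFC3 held all 6 calls in every alternative run. MCM10 lost its call in CRT35 DMSO in 11 of 13 alternatives and in CRT34 DMSO in 2 of 14, and MCM6 lost its call in CRT35 Combo in 4 of 14. MCM2, MCM3, PRIM1 and TYMS lost a call in 1 or 2 alternatives of a comparison. Of the 132 calls of the list against parental cells, 94 held in every alternative and 38 were lost in at least 1. Without CRT34 DMSO replicate 1, 32 genes were called lower in CRT34 DMSO in place of 17, and without its replicate 2 there were 10. Without CRT35 Combo replicate 1, 14 were called lower in CRT35 Combo in place of 22. Counts in gSOX10 #2 were 33 without replicate 1 and 19 without replicate 2, and those in gSOX10 #4 were 31 without replicate 1 and 21 without replicate 3.

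**Figure D2:**
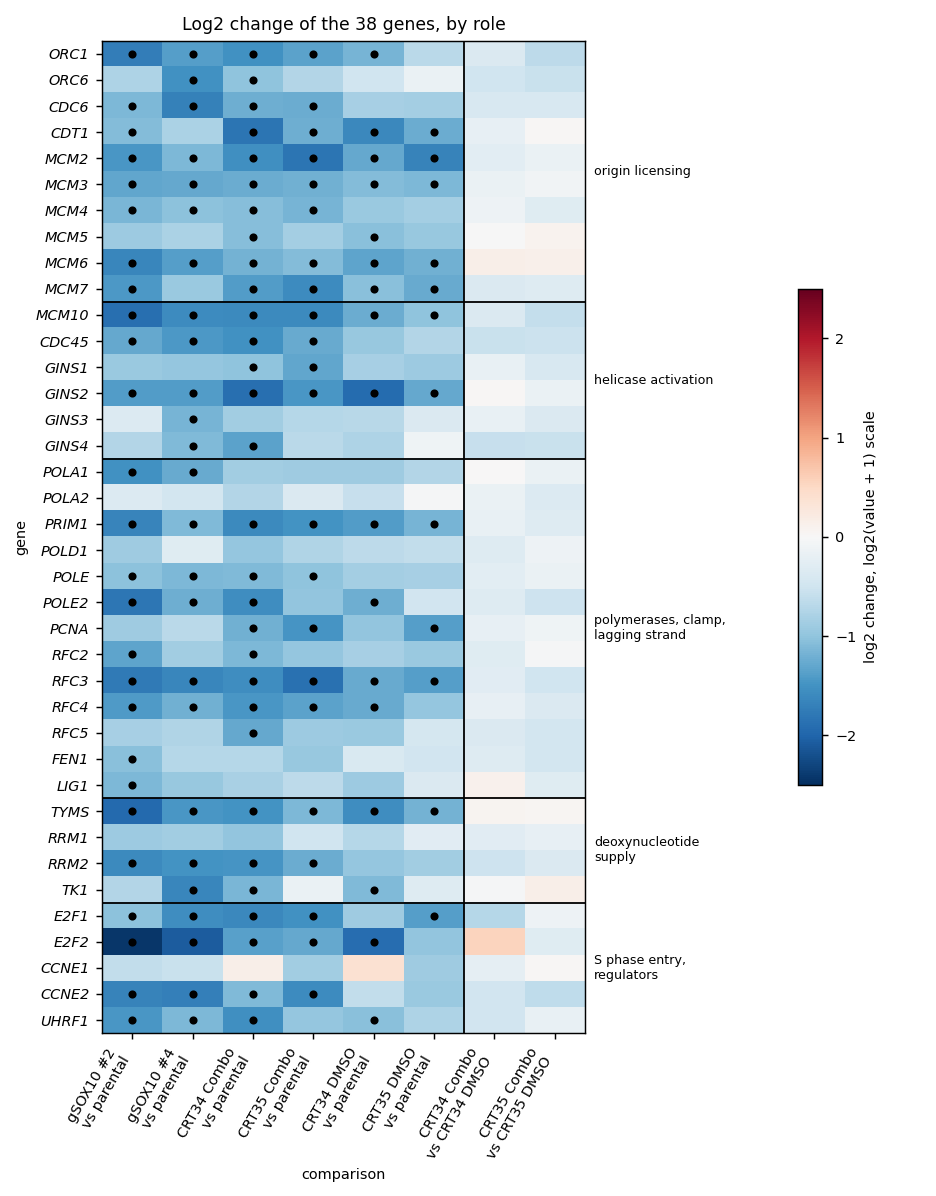
Log2 change on the log2(value + 1) scale (color) of each of the 38 genes (rows, grouped by role) in 8 comparisons (columns), with a black dot where the change passed both thresholds. All dots lie in the 6 columns against parental cells, where every dotted change is a fall, and CCNE1, POLA2, POLD1 and RRM1 have none.

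Of the 10 genes of origin licensing, those called lower were 8 in gSOX10 #2, 7 in gSOX10 #4, 10 in CRT34 Combo, 8 in CRT35 Combo, 7 in CRT34 DMSO and 5 in CRT35 DMSO. The pair with the largest mean size of change over the comparisons with parental cells and with DMSO was MCM2, a subunit of the replicative helicase, with ORC1, an ATPase subunit of the origin recognition complex. MCM2 stood at 18464, 16259 and 17125 in parental libraries 1 to 3, at 7881, 5273 and 6004 in gSOX10 #2 and at 11119.7, 7534 and 5873 in gSOX10 #4. In the CRT lines MCM2 stood at 6221, 6118 and 5657 in CRT34 Combo, 10636, 5803 and 5942 in CRT34 DMSO, 3489.6, 5240.1 and 6239 in CRT35 Combo and 4271, 6675 and 5592 in CRT35 DMSO. All 18 derived libraries of MCM2 lay below the lowest parental one, and its log2 change ran from -1.13 to -1.83 over the 6 comparisons (limma adjusted p 9.87e-06 to 0.00202). For ORC1 the values were 6333, 4707 and 4809 in the parental line, 2052, 1134 and 1703 in gSOX10 #2 and 2733, 1869.7 and 1616 in gSOX10 #4. In CRT34 it was 1386, 1846 and 2410.1 with Combo and 3573, 1768 and 2059 with DMSO, and in CRT35 1322, 2388 and 2852 with Combo and 2452, 3922 and 3713 with DMSO. The groups did not overlap with the parental line for ORC1 either, and its change was -1.72 ± 0.32 (SE) in gSOX10 #2 and -0.67 ± 0.32 in CRT35 DMSO, where it did not pass (adjusted p = 0.0994, limma). MCM3 and MCM6, further helicase subunits, fell in all 6 comparisons, by 1.08 to 1.30 and by 1.07 to 1.62 on the log2 scale. MCM7 and CDT1, the MCM loading factor, fell in 5 comparisons each, and neither passed in gSOX10 #4, at -0.93 and -0.80. CDC6, which recruits CDT1, and MCM4 fell in 4 and were not called in the DMSO groups. MCM5 was called in CRT34 alone (-1.06 with Combo, -1.05 with DMSO), and its change elsewhere was -0.79 to -0.95. ORC6, a small subunit of the origin recognition complex, fell in gSOX10 #4 (-1.52) and CRT34 Combo (-1.001, a call lost in 10 of 13 alternatives, no filter at an adjusted p of 0.0507 among them) and stood at -0.18 in CRT35 DMSO.

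Of the 6 genes of helicase activation, those called lower were 3 in gSOX10 #2, 5 in gSOX10 #4, 5 in CRT34 Combo, 4 in CRT35 Combo, 2 in CRT34 DMSO and 2 in CRT35 DMSO. MCM10, which helps to open the loaded helicase, and GINS2, a subunit of the GINS complex, changed most. MCM10 stood at 5911, 5197 and 5238 in parental libraries 1 to 3, at 1993, 1062 and 1537 in gSOX10 #2 and at 1764, 2037 and 1711 in gSOX10 #4. The CRT libraries of MCM10 were at 1189, 2291 and 2164 in CRT34 Combo, 4754, 1509 and 1733 in CRT34 DMSO, 1083, 2373 and 2282 in CRT35 Combo and 2260.2, 3059 and 2899 in CRT35 DMSO. MCM10 was highest among derived libraries in CRT34 DMSO replicate 1, which still lay below the parental range, and its change was -1.23 ± 0.37 (SE) in that group and -1.75 without that library. In CRT35 DMSO the change of MCM10 was -1.001, at the threshold, and the call was lost in 11 of 13 alternatives, among them the replicate block (limma adjusted p = 0.0512), no filter (0.0538) and each parental library left out in turn. For GINS2 the values were 4024, 3315 and 3335 in the parental line, 1903, 1054 and 1236 in gSOX10 #2 and 2113, 1212 and 935 in gSOX10 #4. CRT34 libraries held 833, 982 and 1077 with Combo and 1502, 764 and 709.8 with DMSO, and in CRT35 880.4, 1457 and 1708 with Combo and 1227, 1738 and 1452 with DMSO. GINS2 fell in all 6 comparisons without overlap, by 1.28 in CRT35 DMSO to 1.92 in CRT34 DMSO on the log2 scale (limma adjusted p 8.52e-05 to 0.003). CDC45, which binds the helicase together with GINS, fell in both knockout groups and in both Combo groups and was at -0.95 and -0.73 in the DMSO groups. GINS1 fell in both Combo groups (-1.01 and -1.31). GINS3 fell in gSOX10 #4 (-1.16) and stood at -0.34 in gSOX10 #2. GINS4 fell in gSOX10 #4 (-1.10) and CRT34 Combo (-1.34) and stood at -0.11 in CRT35 DMSO.

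Of the 13 genes of polymerases, clamp, clamp loader and lagging strand, those called lower were 9 in gSOX10 #2, 6 in gSOX10 #4, 8 in CRT34 Combo, 5 in CRT35 Combo, 4 in CRT34 DMSO and 3 in CRT35 DMSO. RFC3, a subunit of the clamp loader, and PRIM1, the catalytic primase subunit, changed most. RFC3 stood at 10464, 8996 and 9072 in parental libraries 1 to 3, at 3879, 1929 and 2879 in gSOX10 #2 and at 2833, 3244 and 3172 in gSOX10 #4. In the CRT lines RFC3 stood at 2779, 3517 and 3435 in CRT34 Combo, 7428, 2835 and 2913 in CRT34 DMSO, 1590.4, 3039 and 3585 in CRT35 Combo and 3191, 3829.9 and 3980.5 in CRT35 DMSO. RFC3 was at 28.8% of its parental mean in CRT35 Combo, the lowest share of the list in that group, and its change ran from -1.27 to -1.87 (limma adjusted p 8.39e-05 to 0.00388). For PRIM1 the values were 4427, 3560.2 and 3803 in the parental line, 1749, 955 and 1178 in gSOX10 #2 and 1997, 1860.2 and 1644 in gSOX10 #4. With CRT34 the values were 909, 1462 and 1675 with Combo and 2458, 1138 and 1159 with DMSO, and in CRT35 893, 1664 and 1792 with Combo and 1452, 1777 and 2041 with DMSO. PRIM1 did not overlap with the parental libraries in any group, and its change ran from -1.10 to -1.64. RFC4 fell in 5 comparisons and stood at -0.97 in CRT35 DMSO, whereas RFC2 fell in gSOX10 #2 and CRT34 Combo and RFC5 in CRT34 Combo alone (-1.27). PCNA, the clamp itself, fell in CRT34 Combo (-1.20), CRT35 Combo (-1.48) and CRT35 DMSO (-1.38), and stood at -0.89 in gSOX10 #2 and -0.66 in gSOX10 #4. POLE and POLE2, subunits of the leading strand polymerase, were called in 4 comparisons each, of which the call of POLE in CRT35 Combo was lost in 7 of 14 alternatives. POLA1, the catalytic subunit that extends the primer, fell in both knockout groups (-1.52 and -1.26) and stood between -0.89 and -0.73 in the CRT groups. FEN1, the flap endonuclease, and LIG1, which seals lagging strand fragments, fell in gSOX10 #2 (-1.05 and -1.12) and were not called elsewhere.

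POLA2 and POLD1 were called in no comparison. POLA2 stood at 3343, 3108 and 3002 in parental libraries 1 to 3, at 4271, 1575 and 2304 in gSOX10 #2 and at 3709.7, 1807 and 1785 in gSOX10 #4. The CRT libraries of POLA2 were at 1476, 2075 and 2237 in CRT34 Combo, 3902, 1700.5 and 1432 in CRT34 DMSO, 1679, 2703 and 3215 in CRT35 Combo and 3338, 2912 and 3034 in CRT35 DMSO. POLA2, the regulatory subunit of polymerase alpha, did not lie wholly below the parental libraries in gSOX10 #2, gSOX10 #4, CRT34 DMSO, CRT35 Combo and CRT35 DMSO, and its change ran from -0.03 to -0.73 with an SE of 0.37. For POLD1 the values were 3264, 3239 and 3195 in the parental line, 2429, 1205 and 1812 in gSOX10 #2 and 3698, 2345 and 2047 in gSOX10 #4. In CRT34 it was 1728, 1679 and 1540.0 with Combo and 2967, 1751 and 1679.9 with DMSO, and in CRT35 1309.7, 2024 and 2618 with Combo and 2128, 2536 and 1706 with DMSO. POLD1, the catalytic subunit of polymerase delta, passed the adjusted p alone in gSOX10 #2 (-0.89), CRT34 Combo (-0.97) and CRT35 Combo (-0.76), under 2-fold in each. In gSOX10 #4, POLD1 replicate 1 lay above the parental libraries and replicates 2 and 3 below them.

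Of the 4 genes of deoxynucleotide supply, those called lower were 2 in gSOX10 #2, 3 in gSOX10 #4, 3 in CRT34 Combo, 2 in CRT35 Combo, 2 in CRT34 DMSO and 1 in CRT35 DMSO. TYMS, thymidylate synthase, and RRM2, the small subunit of ribonucleotide reductase, changed most. TYMS stood at 15798, 13896 and 14160.3 in parental libraries 1 to 3, at 4453, 2913 and 4134 in gSOX10 #2 and at 6233, 5209 and 4607 in gSOX10 #4. In the CRT lines TYMS stood at 5588, 4786 and 5265 in CRT34 Combo, 7301, 4371 and 3859 in CRT34 DMSO, 5152, 7030.2 and 8256 in CRT35 Combo and 5351, 7348 and 6806 in CRT35 DMSO. TYMS fell in all 6 comparisons with no overlap, by 1.13 in CRT35 Combo to 1.95 in gSOX10 #2 on the log2 scale (limma adjusted p 1.39e-06 to 0.000292), and without CRT35 Combo replicate 1 its change in that group was -0.94, under 2-fold. For RRM2 the values were 44525, 33795 and 37028 in the parental line, 19065, 7850.1 and 13561 in gSOX10 #2 and 15371, 13662 and 11954 in gSOX10 #4. CRT34 libraries held 10314, 14400.3 and 17393 with Combo and 36626, 13623 and 14984 with DMSO, and in CRT35 9101, 20404 and 22873 with Combo and 17099, 22864 and 22970.5 with DMSO. RRM2 in CRT34 DMSO replicate 1 lay inside the parental range, and its change in that group was -0.97 ± 0.37 (SE) and -1.42 without that library. In CRT35 Combo the change of RRM2 was -1.24 ± 0.37 and -0.82 without replicate 1 (adjusted p = 0.0763, limma).

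TK1, the thymidine kinase of the salvage route, is given in full because its values, once seen, differed between the lines. TK1 stood at 8186, 7126 and 8537 in parental libraries 1 to 3, at 4920.4, 4047 and 5505 in gSOX10 #2 and at 3839, 2113 and 2045 in gSOX10 #4. With CRT34 the values were 3693, 3339 and 3771 with Combo and 4495, 3339 and 3301 with DMSO, and in CRT35 4590.0, 7397 and 10436 with Combo and 5418, 7534 and 6347 with DMSO. TK1 fell in gSOX10 #4 (-1.64), CRT34 Combo (-1.14) and CRT34 DMSO (-1.11), and its values in CRT35 Combo replicates 2 and 3 and in CRT35 DMSO replicate 2 reached or passed the parental range. Its change was -0.16 ± 0.25 (SE) in CRT35 Combo and -0.31 ± 0.25 in CRT35 DMSO. Between the lines TK1 was higher in CRT35 than in CRT34 by 0.98 ± 0.25 with Combo (adjusted p = 0.0136, limma) and by 0.80 ± 0.25 with DMSO (adjusted p = 0.0392), both under 2-fold, and between the knockout lines it was lower in gSOX10 #4 than in gSOX10 #2 (-0.91 ± 0.25, adjusted p = 0.0147). For RRM1 the values were 17158, 14220.0 and 13928 in the parental line, 11034, 5603 and 8337 in gSOX10 #2 and 7874, 8048 and 8836 in gSOX10 #4. In CRT34 it was 6464, 7169.6 and 9349 with Combo and 14503, 7251 and 7358 with DMSO, and in CRT35 7555, 11627 and 13972 with Combo and 10836, 13696 and 12774 with DMSO. RRM1, the large subunit of ribonucleotide reductase, reached the parental range in CRT34 DMSO replicate 1 and CRT35 Combo replicate 3. It was called in no comparison, and its change ran from -0.28 to -0.99.

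Of the 5 regulators of S phase entry, those called lower were 4 in gSOX10 #2, 4 in gSOX10 #4, 4 in CRT34 Combo, 3 in CRT35 Combo, 2 in CRT34 DMSO and 1 in CRT35 DMSO. E2F2, an activating E2F factor, showed the lowest change of the whole list in gSOX10 #2 and in gSOX10 #4. E2F2 stood at 935, 912 and 1082 in parental libraries 1 to 3, at 155, 162 and 225 in gSOX10 #2 and at 260.2, 299 and 153 in gSOX10 #4. The CRT libraries of E2F2 were at 311, 456 and 385 in CRT34 Combo, 353, 201 and 241 in CRT34 DMSO, 276, 419 and 551 in CRT35 Combo and 317, 667 and 559 in CRT35 DMSO. No derived library of E2F2 reached the parental range, and its change was -2.44 ± 0.32 (SE) in gSOX10 #2 and -0.99 ± 0.32 in CRT35 DMSO, just under 2-fold (limma adjusted p 7.08e-06 and 0.0166). For E2F1 the values were 2957, 2547 and 2919.9 in the parental line, 1963, 1024 and 1290.3 in gSOX10 #2 and 1510.2, 868 and 659 in gSOX10 #4. CRT34 libraries held 973, 1008 and 790.5 with Combo and 3038, 1083 and 1054 with DMSO, and in CRT35 736, 1228 and 1053 with Combo and 914, 1247 and 1101 with DMSO. E2F1, the factor whose promoter is shown above, overlapped with the parental line only in CRT34 DMSO, through replicate 1, and its change there was -0.89 ± 0.35 and -1.39 without that library. In the other 5 comparisons E2F1 fell by 1.03 to 1.61 on the log2 scale. The call of E2F1 in gSOX10 #2 was lost in 5 of 12 alternatives, such as equal totals (-0.91) and without gSOX10 #2 replicate 2 (-0.82, limma adjusted p = 0.112). CCNE2, the other E-type cyclin, fell in both knockout groups (-1.67 and -1.70) and in both Combo groups (-1.10 and -1.57), and stood at -0.62 and -0.93 with DMSO. The CCNE2 call in CRT34 Combo was lost in 9 of 13 alternatives, such as no filter (limma adjusted p = 0.0619) and quantile normalisation (0.0545). UHRF1, which couples DNA methylation to replication, fell in gSOX10 #2 (-1.46), gSOX10 #4 (-1.12), CRT34 Combo (-1.53) and CRT34 DMSO (-1.05).

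CCNE1 stood at 1072, 985 and 1012 in parental libraries 1 to 3, at 857, 566 and 611 in gSOX10 #2 and at 707, 680.3 and 688 in gSOX10 #4. With CRT34 the values were 1049, 1441 and 946 with Combo and 2194, 913 and 1157 with DMSO, and in CRT35 627, 652 and 432 with Combo and 558, 614 and 494 with DMSO. CCNE1, the E-type cyclin that activates CDK2 before S phase, was called in no comparison with parental cells. Its mean in CRT34 was above the parental mean under both conditions (0.14 and 0.37 on the log2 scale, the latter 0.01 without CRT34 DMSO replicate 1), and every CRT35 library lay below every parental and every CRT34 library (-0.86 and -0.88). A direct comparison of the lines, added after the values were seen, called CCNE1 lower in CRT35 with Combo (-1.005 ± 0.26 (SE), adjusted p = 0.0123, limma) and with DMSO (-1.26 ± 0.26, adjusted p = 0.00221). Of the 38 genes CCNE1 alone was called between the lines with Combo, against 6.91% of all genes, and with DMSO, against 8.11%. With Combo the call was lost without CRT34 Combo replicate 2 (-0.83, limma adjusted p = 0.0757) or CRT35 Combo replicate 3 (-0.82, adjusted p = 0.0715). Without CRT34 DMSO replicate 1 the DMSO difference was -0.89, under 2-fold (adjusted p = 0.00991). With that library left out E2F2 passed as higher in CRT35 DMSO (1.15), and without CRT35 Combo replicate 1 TK1 and GINS4 passed as higher in CRT35 Combo (1.29 and 1.01).

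**Figure D3:**
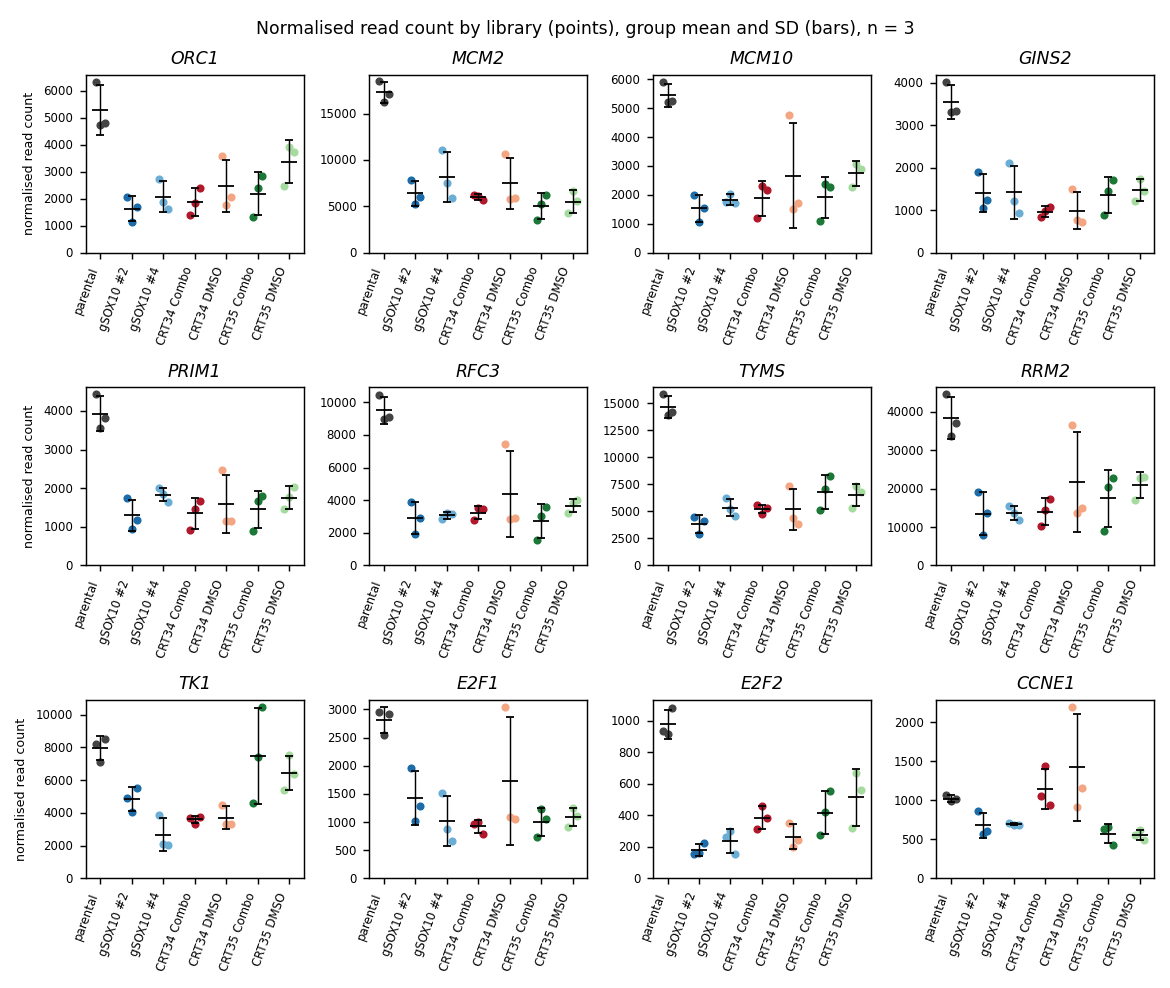
Normalised read count (vertical axes, from 0) of 12 genes of the list in the 7 groups (horizontal axes). Points are libraries, in replicate order within a group, and bars are the mean and SD of 3 libraries. MCM2, TYMS and E2F2 show no derived library inside the parental range, TK1 reaches it in CRT35, and CCNE1 differs between CRT34 and CRT35.

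Combo and DMSO were compared within each CRT line to ask how the inhibitors moved these genes. Each comparison called 0 of the 38 genes with limma, against 5.10% of all genes in CRT34 and 1.14% in CRT35. No gene of the list had an unadjusted p under 0.05 in either, against 21.6% of all genes in CRT34 and 15.5% in CRT35. The share of all genes called in CRT34 depended on the fit. With the compared groups alone, 62 of all genes were called lower and 18 higher in CRT34, in place of 436 and 547. In CRT35 these were 142 and 156, in place of 125 and 94. The list again had 0 calls in each line. The lowest adjusted p was 0.242 in CRT34, for E2F1 (-0.72 ± 0.35, SE), and 0.325 in CRT35, for ORC1 (-0.66 ± 0.32). Most values were lower with Combo, 32 of 38 genes in each line, with a median log2 change of -0.26 in CRT34 and -0.30 in CRT35. Each of these medians rested on 1 library. Without CRT34 DMSO replicate 1 the CRT34 median was 0.09, and without CRT35 Combo replicate 1 the CRT35 median was -0.04. The 95% interval of the change lay above -1, a fall by 2-fold, for 28 genes in CRT34 and 24 in CRT35, and reached below it for the rest. It lay wholly within 2-fold in both directions for 27 genes in CRT34 and 24 in CRT35, MCM3, PCNA and TYMS among them in each line.

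E2F2 was the gene of the list with the highest value for Combo against DMSO in CRT34 (0.56 ± 0.32, SE), and its change in CRT35 was -0.29 ± 0.32. The interaction test of the drug effect between the lines called 0 of the 38 genes with limma, against 0.0104% of all genes. At an unadjusted p under 0.05 there were 0 of the 38, against 6.96% of all genes. E2F2 had the lowest adjusted p of the list, 0.752 (limma), with a difference of -0.85 ± 0.45. The median difference between the drug effects was -0.01, -0.39 without CRT34 DMSO replicate 1 and 0.17 without CRT35 Combo replicate 1. Between the knockout lines 0 of the 38 genes passed both thresholds with limma (9.70% of all genes were called), and 1 gene, TK1, passed the adjusted p alone. Without gSOX10 #2 replicate 2, ORC6 (-1.14), GINS3 (-1.07) and TK1 (-1.03) were called lower in gSOX10 #4, and without gSOX10 #4 replicate 1, GINS3 (-1.01) and TK1 (-1.20) were. With all libraries 2 genes had a lower and 2 a higher value at an unadjusted p under 0.05 (limma), a cut that 33.7% of all genes passed in either direction.

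**Figure D4:**
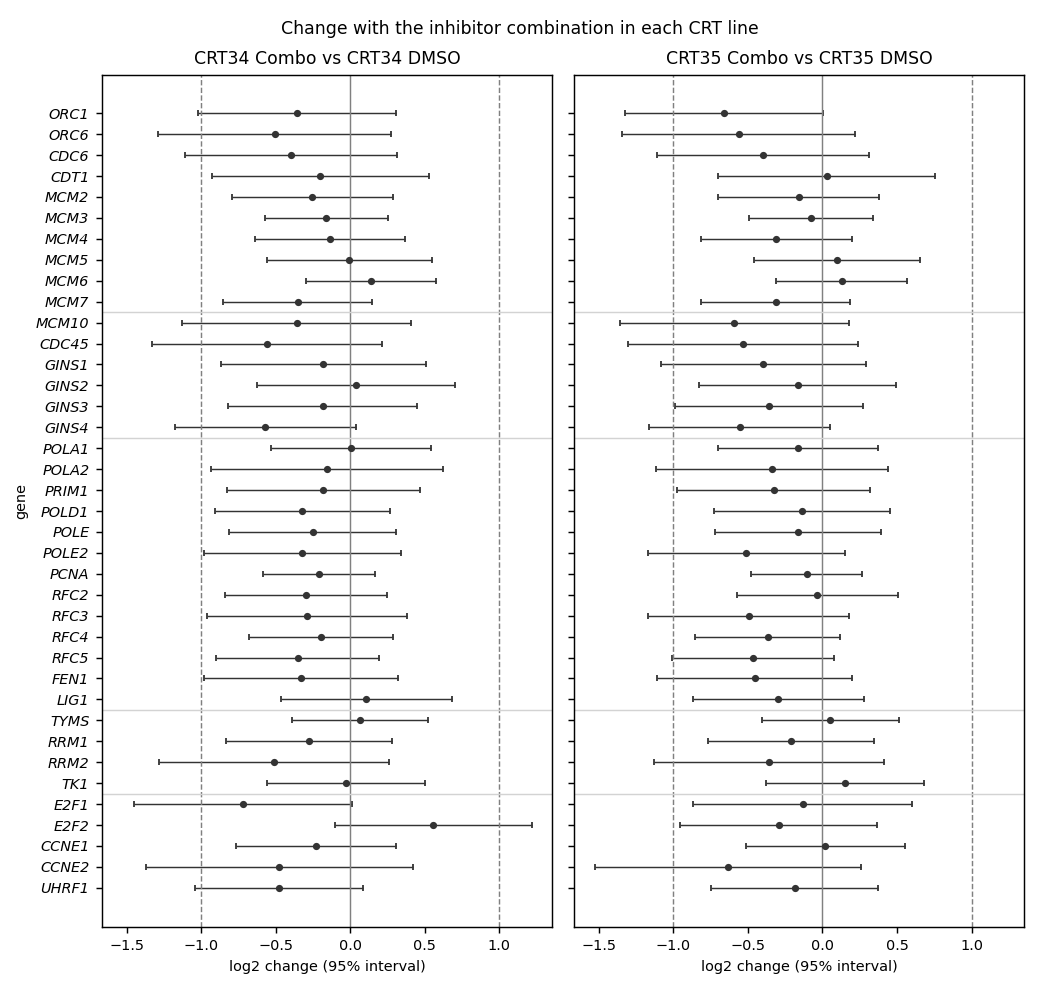
Log2 change with Combo against DMSO (horizontal axis) for each of the 38 genes (rows, by role) in CRT34 (left) and CRT35 (right). Points are the fitted change, bars the 95% interval, and dashed lines 2-fold changes. All intervals reach 0 or cross it, and the lowest points are E2F1 at -0.72 in CRT34 and ORC1 at -0.66 in CRT35.

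Of 42 other replication genes, 15, 11, 14, 11, 7 and 3 were called lower in gSOX10 #2, gSOX10 #4, CRT34 Combo, CRT35 Combo, CRT34 DMSO and CRT35 DMSO, with medians of -0.84, -0.79, -0.86, -0.69, -0.59 and -0.48. These are 35.7%, 26.2%, 33.3%, 26.2%, 16.7% and 7.14% of the list, against 7.78%, 8.91%, 8.09%, 10.2%, 7.35% and 7.98% of all genes, and the share in CRT35 DMSO was below that of all genes. In each comparison 1 was called higher, and it was POLD4, the smallest subunit of polymerase delta, each time. POLD4 stood at 531, 759 and 839 in the parental libraries, 3625, 4098 and 3492 in gSOX10 #2 and 3536, 2601 and 2729 in gSOX10 #4. In CRT34 it stood at 3611, 1812 and 1183 with Combo and 1130.5, 2116 and 2753 with DMSO, and in CRT35 at 4162, 3017 and 2157 and 2694, 1673 and 1548. All derived libraries of POLD4 lay above the parental ones, and the rise ran from 1.43 to 2.42 on the log2 scale, while POLD1 was called in no comparison. MCMBP, which binds MCM proteins, fell in gSOX10 #2 (-1.18 ± 0.15, SE), and TOPBP1, which takes part in helicase activation and checkpoint signaling, fell in CRT35 Combo (-1.37 ± 0.18).

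Of the 16 other genes of the E2F and RB family, 4, 4, 2, 4, 1 and 3 were called lower in the same order (25%, 25%, 12.5%, 25%, 6.25% and 18.8%). The share in CRT34 DMSO was below the 7.35% of all genes, and that in CRT34 Combo was 2 genes against 8.09%. TFDP1, the partner with which E2F factors bind DNA, stood at 26252 ± 3293 (SD, n = 3) in parental cells, 11864 ± 2089 in gSOX10 #2, 11459 ± 458 in gSOX10 #4 and 8765 ± 1769 in CRT35 Combo, its lowest group. Its levels in CRT34 Combo, CRT34 DMSO and CRT35 DMSO are not listed here. In CRT34 DMSO TFDP1 was not called, since the 1 gene of this family called lower there was E2F8. The remaining E2F factors were added after the values were seen, to complete the family. E2F8, an atypical repressor, fell in all 6 comparisons, with changes of -1.54 to -2.21 on the log2 scale. E2F7, the other atypical repressor, stood at 5454, 3947 and 4401 in parental libraries, 17744, 8035 and 9213 in gSOX10 #2 and 7065, 7802 and 7576 in gSOX10 #4. In CRT34 it was 3846, 6313 and 5694 with Combo and 10096, 8765 and 8437 with DMSO, and in CRT35 3449, 5353 and 4925 and 13937, 13189 and 14608. It rose in gSOX10 #2 (1.26) and CRT35 DMSO (1.61), and fell with Combo in CRT35 (-1.63 ± 0.24, adjusted p = 0.00119, limma), where no library of the 2 conditions overlapped. In CRT34 its change with Combo was -0.81 (adjusted p = 0.0419), under 2-fold. E2F5 fell in CRT35 Combo (-1.20) and was higher than in parental cells in gSOX10 #4, under 2-fold (0.44, adjusted p = 0.0194), while E2F3 fell in gSOX10 #2 (-1.12) and E2F4 and E2F6 changed by less than 2-fold in all 6.

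**Figure D5:**
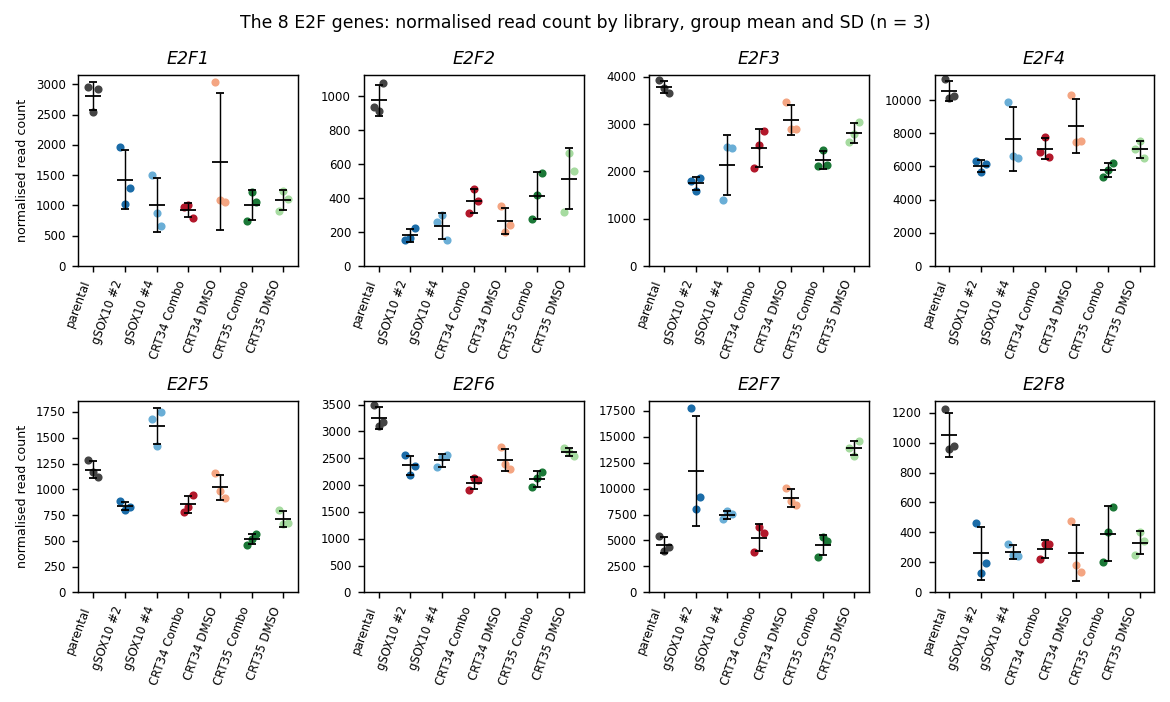
Normalised read count (vertical axes, from 0) of E2F1 to E2F8 in the 7 groups (horizontal axes), with libraries as points in replicate order and the mean and SD of 3 libraries as bars. E2F1, E2F2 and E2F8 are highest in the parental line, apart from E2F1 in CRT34 DMSO replicate 1, and E2F7 is highest in CRT35 DMSO and gSOX10 #2 replicate 1.

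Of 17 S phase kinases, cyclins and inhibitors, 5, 6, 4, 2, 4 and 2 were called lower in the same order (29.4%, 35.3%, 23.5%, 11.8%, 23.5% and 11.8%), and the shares in CRT35 Combo and CRT35 DMSO, 2 genes each, were near the 10.2% and 7.98% of all genes. Those called higher were 5.88%, 5.88%, 11.8%, 11.8%, 5.88% and 11.8%, below the share of all genes in each comparison. CDKN1A, the CDK inhibitor p21, rose in all 6 comparisons, by 2.02 to 3.28 on the log2 scale, from 5269.8, 4922 and 5015 in parental libraries to 38835, 47360.3 and 64233 in gSOX10 #4. In CRT34 DMSO it was 13970.0, 23590.5 and 27910.1, lowest in replicate 1, the library in which the 38 genes were highest, and in CRT35 Combo it was 52408, 32622 and 16035, highest in replicate 1, where they were lowest. These 2 CRT groups are those whose replicate 1 stood apart in the 38 genes, and CDKN1A is not listed by library for gSOX10 #2, CRT34 Combo and CRT35 DMSO. A relation between CDKN1A and the 38 genes across libraries was not tested. CDKN1C, the CDK inhibitor p57, fell in all 6, from 73.0, 153 and 124 to at most 34.7 in any derived library. SKP2, which targets CDK inhibitors for degradation, fell in both knockout groups and both CRT34 groups by 1.26 to 1.76 and stood at -0.55 and -0.20 in CRT35. CCND2, a D-type cyclin, was listed at 0 in all parental libraries and passed the filter on low values through CRT34 Combo and both CRT35 groups, where it reached at most 34.8, 21.8 (Combo) and 23.0 (DMSO).

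Markers of other cell types moved with the same groups. Their sums follow the genes with the largest values, since the scale per gene is not known. The summed level of 4 fibroblast markers was 466 to 593 in parental libraries, 1818 to 2351 in gSOX10 #2, 1121 to 1378 in gSOX10 #4, and 20642 to 40928, 40704 to 76971, 70910.4 to 178567 and 62768 to 97409.5 in CRT34 Combo, CRT34 DMSO, CRT35 Combo and CRT35 DMSO, and none of the 4 stayed under 10 throughout. Those called higher were 3 in gSOX10 #2, 2 in gSOX10 #4 and 4 in each CRT group. Of all genes 15.9%, 11.8% and 15.7% to 20.1% were called higher there. The 3 endothelial markers summed to 28.6 to 38.9 in parental and 82.0 to 579 in derived libraries, where PECAM1 held the largest share of most sums. PECAM1 was called higher in all 6 comparisons (2.89 to 4.80). CDH5 was called higher in CRT34 Combo (2.61) and CRT34 DMSO (2.79) and was listed at 0 in all gSOX10 #4 libraries, and VWF was called higher in gSOX10 #2 (1.98) and lower in CRT34 DMSO (-2.08). In gSOX10 #4, 1 of the 3 endothelial markers was called higher and 1 lower, against 11.8% and 8.91% of all genes. CD68, a lysosomal protein abundant in macrophages, stood at 1286, 1226 and 1156 in parental libraries and at 3174 to 16858 in derived ones, and was called higher in all 6 comparisons (1.78 to 3.30). PTPRC, the leukocyte antigen CD45, was at most 0.853 in parental libraries and 44.5 in any derived one. Of 3 keratinocyte markers, DSG3 stayed under 10, and the sum was 322 to 375 in parental and 0 to 102 in derived libraries. The part of these markers in the lower level of the 38 genes was not tested.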

How the data were processed

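Poly(A) RNA of 21 libraries in 7 groups of 3 was sequenced, and the deposited tables, 1 per library, give a signal per gene, a read count that the authors normalised between libraries. Per the labels, the tools were STAR 2.6.1a, RSEM, Picard and DESeq2 on GRCh38, and labels and methods name different TruSeq kits. The values are not whole, so no count model was used. Their gene-wise scale is not given in the sources used here, and levels are not compared between genes.

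Values were analysed as log2(value + 1) with limma 3.58.1 (R 4.3.3, trended variance, 1 fit of all 21 libraries with a mean per group), over the 19290 genes that reached 10 in 3 or more libraries. P-values were adjusted by the Benjamini-Hochberg method, and calls needed a 2-fold change with an adjusted p no higher than 0.05. A log2 change on this scale understates the change of low genes. The statistics were tested on simulated data. All 38 genes are named, and values in every library are given for the 2 genes of each role with the largest mean change, for genes called in no comparison and for E2F1 and E2F2. Of other lists at most 4 genes were taken, by lowest p, apart from those named as added. The genes and lists were chosen with earlier results of these data known. Intervals are 95% intervals of the fitted change. Replicate numbers were not used as a block, since same-numbered libraries deviated together in only 1 pair of groups (CRT34 Combo with CRT35 Combo, correlations 0.207 to 0.253), and gSOX10 #2 was numbered in accession order. Read depth, estimated from the step between low values, was 27.2 M to 75.5 M, and the deposited values summed to 59.2 M to 68.3 M. Alternatives were another pseudocount (10), no filter, equal totals, quantile normalisation, the compared groups alone, adjusted p alone, a replicate block and each library left out. The summed level of 1 further marker list is not reported here.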

Additional observations from a re-analysis of the deposited data

Results flagged for a closer look

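CCNE1, cyclin E1, differed between the CRT lines in a direct comparison that was added after the values were seen. With Combo it was lower in CRT35 than in CRT34 by a log2 difference of -1.005 (SE 0.26, limma adjusted p = 0.0123), and with DMSO by -1.26 (adjusted p = 0.00221). All 6 CRT35 libraries lay below all 6 CRT34 libraries. The Combo difference was -1.08 without CRT35 Combo replicate 1, and it no longer passed without CRT34 Combo replicate 2 (-0.83) or CRT35 Combo replicate 3 (-0.82). The DMSO difference was -0.89, under 2-fold, without CRT34 DMSO replicate 1, the library in which CCNE1 reached 2194.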

How the results depend on the processing

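Calls of the 38 genes against parental cells were all falls in every alternative. With adjusted p alone, 30 genes were called in CRT34 DMSO, 22 in CRT35 DMSO, 1 between the knockout lines, and 2 between the CRT lines with Combo and with DMSO alike. Shares of all genes at that rule are not given here, and those given for calls do not apply to it. At an unadjusted p under 0.05 (limma), 49.0%, 49.6%, 33.7%, 27.6% and 27.6% of all genes passed in these comparisons, in either direction. With a pseudocount of 10, 0 genes were called between the CRT lines with Combo (limma). With both CRT34 DMSO replicate 1 and CRT35 Combo replicate 1 left out, an alternative chosen after seeing the data, 32 genes were called in CRT34 DMSO and 14 in CRT35 Combo. Of all genes, 1627 and 1661 were called lower in these 2 comparisons. Between the CRT lines there were then 3 with Combo (CCNE1 lower, TK1 and GINS4 higher) and 2 with DMSO (E2F2 and POLE2 higher), where CCNE1 kept its sign at -0.89, under 2-fold. The cause was not tested.

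Over the fits that left out 1 library, the number called was 19 to 33 in gSOX10 #2, 21 to 31 in gSOX10 #4, 25 to 30 in CRT34 Combo, 14 to 28 in CRT35 Combo, 10 to 32 in CRT34 DMSO and 10 to 17 in CRT35 DMSO. It was 0 to 3 between the knockout lines, 0 to 0 for either drug comparison and the interaction, 0 to 3 between the CRT lines with Combo, and 1 to 2 with DMSO.

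The replicate block, over the 18 libraries whose labels give numbers, called 25 genes in gSOX10 #4, 30 in CRT34 Combo, 22 in CRT35 Combo, 17 in CRT34 DMSO and 11 in CRT35 DMSO, 0 in the drug comparisons and the interaction, and 1 between the CRT lines with either treatment. No paired value was computed for gSOX10 #2. Of 6346 alternative values of single genes, 6135 stayed on the same side of the threshold, 344 of them with the other sign (6 of those against parental cells), 91 passed it newly, 120 no longer passed and 0 reversed a call.

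Quantile normalisation changed the balance of calls over all genes, least in gSOX10 #4 (1718 lower and 2278 higher, then 1713 and 1945). The lower and higher calls went from 1501 and 3064 to 1958 and 2288 in gSOX10 #2, from 1560 and 3679 to 2457 and 2639 in CRT34 Combo, and from 1963 and 3876 to 2816 and 2913 in CRT35 Combo. They went from 1418 and 3035 to 1996 and 2291 in CRT34 DMSO and from 1540 and 3032 to 2012 and 2369 in CRT35 DMSO. It moved the median of all genes to between -0.13 and -0.01 against parental cells, while equal totals moved it to between 0.05 and 0.15. Under both, the median of the 38 genes stayed between -1.16 and -0.84.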
